A study of Arabidopsis thaliana with 22 samples.

Results

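The mRNAs described here are the 200 that were most strongly loaded with ribosomes in the shoots of wild-type (WT) *Arabidopsis thaliana* seedlings, and the report follows them into the *pab2 pab8* double mutant. Loading is expressed as the translation state (TL), the log2 signal of polysomal RNA (PL) minus the log2 signal of non-polysomal RNA (NP) of the same genotype and replicate. A log2 TL of 1 means that an mRNA had 2-fold more normalized signal in PL than in NP. Each array was normalized as a whole, so TL ranks mRNAs within a sample and does not give the share of molecules in polysomes. The members were taken from ATH1 arrays with 22746 probe sets. A probe set was eligible if it was named by 1 nuclear gene, did not carry the suffix of a cross-hybridising probe set, belonged neither to the ribosomal proteins listed by the study nor to the histones, and had a mean log2 signal of at least 7 in WT total RNA. 4093 genes were eligible, and those with the 200 highest mean TL values over the 4 WT replicates became members, which is 4.89% of them. All 200 are distinct protein-coding genes.

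The *pab2 pab8* plants carry T-DNA insertions in 2 genes for poly(A) binding proteins in the Columbia background, and WT was Columbia without the insertions. Aerial parts were taken from seedlings of both genotypes after 10 to 12 days on agar with Murashige and Skoog salts, 1% sucrose, continuous light and 22°C. Sucrose gradients gave 4 PL and 4 NP samples per genotype, where NP also contains monosomes, and total RNA was measured in 3 samples per genotype. The biological replicates were grown at different times, with mutant and WT next to each other, and the mutant is represented by a single combination of alleles.

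An mRNA that is being translated by several ribosomes sediments as a polysome, whereas free mRNA and mRNA with 1 ribosome remain in the lighter part of the gradient. Poly(A) binding proteins coat the tail of an mRNA and contact initiation factors at its other end, and plants have several genes for them. Which mRNAs sit in polysomes in a green shoot depends on initiation, elongation and mRNA length, and highly loaded mRNAs in plants are known to include genes for photosynthesis and for abundant housekeeping proteins.

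On the PL and NP arrays the median log2 signal lay between 4.89 and 4.99, with the exception of the NP array of *pab2 pab8* replicate 2 at 4.68. The number of members called higher in PL of *pab2 pab8* and their median TL are also given without that replicate, while most other mutant values include it. Total RNA arrays had medians of 6.12 to 6.23. Of 10 markers of green shoots only *RCA*, the gene for Rubisco activase, could be matched by name, and its log2 total RNA signal averaged 14.31 in *pab2 pab8* and 14.31 in WT. Its fraction signals were 3.40 to 3.79 in PL and 3.71 to 4.63 in NP of *pab2 pab8*, and 3.55 to 3.72 in PL and 3.70 to 4.51 in NP of WT, below the array medians. High total RNA signal was thus no guarantee of signal in the fractions. Below the array medians in both PL and NP lay 277 eligible genes (6.77%) in *pab2 pab8* and 266 (6.50%) in WT. Among the members the same was true of 1 in *pab2 pab8* and of 0 in WT. The choice of high PL over NP in WT favours such a low count in WT, so it is a description. Of 7 root markers *PYK10* and *EXPA7* were matched. *EXPA7* was near the lower part of the signal range, with 4.25 in *pab2 pab8* and 4.61 in WT, while *PYK10*, which is also a member, was at 12.16 in *pab2 pab8* and 12.22 in WT. The 3 matched seed markers of 6 were *CRA1*, *CRU3* and *OLEO2*. The log2 of their summed signals in total RNA was higher in *pab2 pab8*, between 9.08 and 10.36, than in WT, between 6.21 and 6.65.

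The members were chosen by their PL and NP signals on the WT arrays, so their WT values are a description and carry no test. The mean TL of the 200 members in WT ran from 1.35 to 3.90 with a median of 1.61, and the 3893 other eligible genes had a median of 0.17. As a ratio, the members had 2.55-fold to 14.9-fold more signal in PL than in NP, with a median of 3.05-fold. Only 27 members reached a TL of 2, so most lie close together at the lower end of the list. The last members were *IQD31*, a gene of the calmodulin-binding IQ-domain family, with 1.36, and *AT2G37110*, *AT5G53490*, *AT5G10960* and *AT5G55210* with 1.35 each. Just outside stood *AT2G05790*, *PPR336*, *MPPBETA*, *AT1G18070* and *AT5G19590*, all at 1.34 (*MPPBETA* encodes a subunit of the mitochondrial processing peptidase), so the limit separates genes whose values do not differ beyond their replicate SDs of 0.07 to 0.46.

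The mutant arrays were not used to choose the members, and there the same mRNAs were again found in polysomes. TL was above 0 in all 4 *pab2 pab8* replicates for 200 of 200 members, against 42.6% of the other eligible genes. When PL was tested against NP over the 4 mutant replicates with limma, 200 members were higher in PL at a false discovery rate (FDR) below 0.05, where 40.3% of eligible genes and 22.9% of all probe sets were called in that direction. The highest FDR among the members was 0.0124. A difference of at least 2-fold was reached by 186 members, against 10.8% of eligible genes. The median TL of the members was 1.47 in the mutant, or 2.77-fold, and that of the other eligible genes was 0.20. Without replicate 2, the one with the low NP array, 200 members were called and the median was 1.44.

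**Figure D1:**
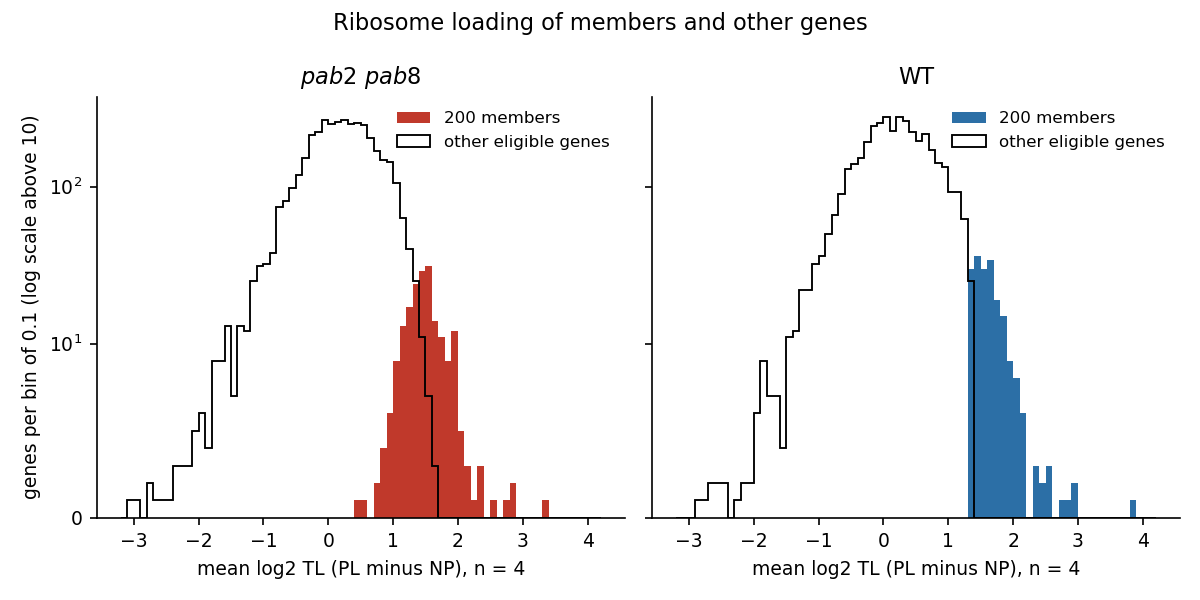
Mean log2 TL (PL minus NP, n = 4) of the 200 members (filled bars) and of the 3893 other eligible genes (black outline) in *pab2 pab8* (left) and WT (right), with the number of genes in bins of 0.1 on an axis that is logarithmic above 10. In WT the boundary at 1.35 is the choice itself, whereas in *pab2 pab8* the members spread from 0.46 to 3.35 and overlap with the others.

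The strongest loading in both genotypes was that of *AT1G64370*, which carries only its locus code in the tables used here. Its TL was 2.50, 3.82, 3.69 and 3.39 in *pab2 pab8* replicates 1 to 4, against 3.65, 3.90, 4.04 and 4.00 in WT. All mutant values but that of replicate 1 were above 3, and the mean of 3.35 ± 0.60 (SD, n = 4) corresponds to a 10.2-fold excess in PL (limma, FDR = 9.54e-08). The mutant PL signals were 8.88 to 10.31 and the NP signals 6.17 to 6.62, so both lay well above the array medians.

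*NAI2* encodes a protein needed to form ER bodies, compartments of the endoplasmic reticulum that are found in Brassicaceae. Its TL was 2.29, 3.15, 3.00 and 2.88 in *pab2 pab8* and 3.12, 2.88, 2.92 and 2.72 in WT. The ranges overlapped, and the mutant mean was 2.83 ± 0.37 (SD, n = 4; limma, FDR = 7.63e-08). In NP its signal was 4.52 to 5.17 in *pab2 pab8* and 3.82 to 5.03 in WT, near or below the array medians, so the size of its TL is set in part by a signal close to background. *PYK10*, which encodes the beta-glucosidase stored in ER bodies, had a TL of 1.70, 1.91, 1.94 and 1.74 in *pab2 pab8* and of 1.69, 1.91, 1.82 and 1.48 in WT. These ranges overlapped as well.

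*CYS1*, a gene for a cystatin (an inhibitor of cysteine proteases), had TL values of 2.01, 2.76, 2.69 and 1.79 in *pab2 pab8*, against 2.54, 2.50, 2.47 and 2.59 in WT. The WT replicates lay close together, and the mutant replicates lay on both sides of them. *AT1G54410*, known as *HIRD11* and coding for a small dehydrin, had 1.55, 2.23, 2.21 and 2.00 in *pab2 pab8* and 2.63, 2.08, 2.05 and 2.79 in WT. Its mutant mean was 2.00 ± 0.32 and its WT mean 2.39 ± 0.38 (SD, n = 4 each).

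The other 8 of the first 12 members have no name beyond the locus code here. Their mean TL in *pab2 pab8* was 2.57 for *AT4G19200*, 2.89 for *AT4G34290*, 2.78 for *AT5G45350*, 2.39 for *AT1G18210*, 2.05 for *AT1G48610*, 1.97 for *AT4G28440*, 2.02 for *AT1G16210* and 2.17 for *AT3G14067*. Each of these was called higher in PL of the mutant by limma, with FDR values of at most 3.83e-06. In WT they ran from 2.35 for *AT3G14067* to 2.99 for *AT4G19200*.

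**Figure D2:**
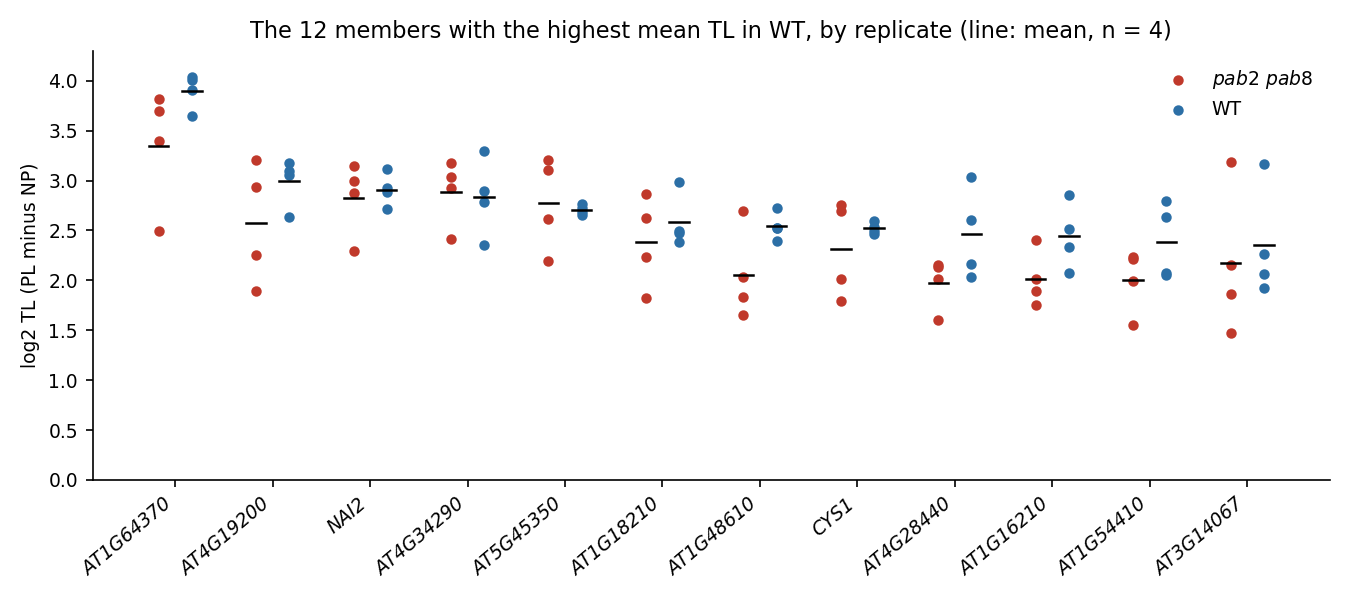
Log2 TL of the 12 members with the highest mean TL in WT, with 1 point per replicate in *pab2 pab8* (red, left of each pair) and WT (blue) and a line at the mean (n = 4). The mean of *AT1G64370* stands above those of the other genes in both genotypes, although its lowest mutant point overlaps with points of other genes. All points lie above 1.4.

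Median TL varied between the replicates of each genotype, and the ranges of both genotypes overlapped. The choice on WT values raises the members' medians in WT. The members' median TL was 1.37, 1.58, 1.52 and 1.41 in *pab2 pab8* replicates 1 to 4 and 1.80, 1.56, 1.53 and 1.62 in WT. The other eligible genes had medians of 0.11, 0.39, 0.16 and 0.10 in *pab2 pab8* and 0.24, 0.14, 0.16 and 0.14 in WT, and the 0.39 belongs to the replicate with the low NP array. Taken as the distance between both medians, the members stood 1.26, 1.19, 1.36 and 1.31 above the others in *pab2 pab8* and 1.56, 1.43, 1.37 and 1.48 above them in WT.

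**Figure D3:**
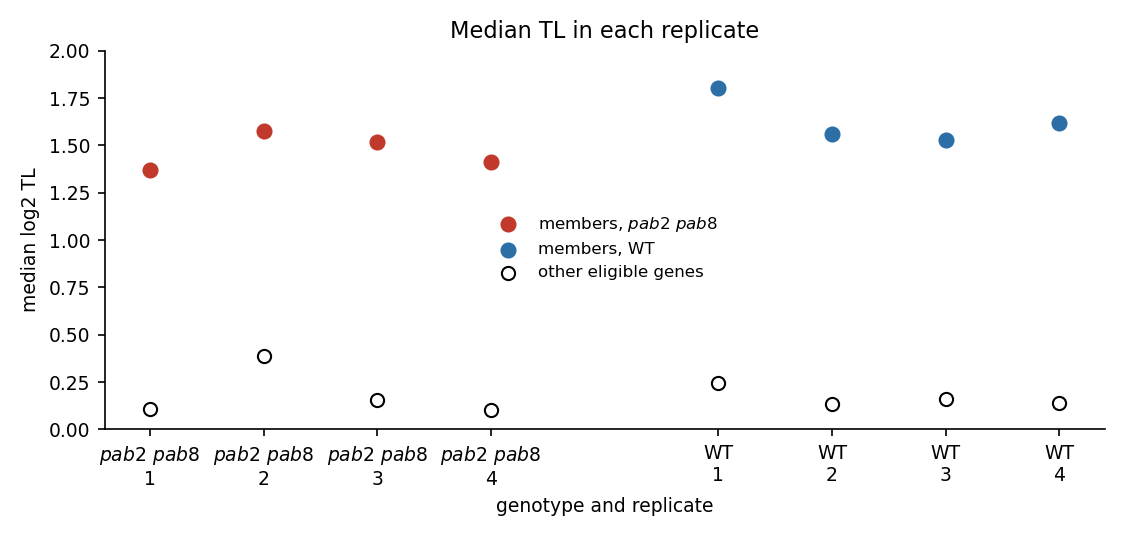
Median log2 TL of the 200 members (filled) and of the other eligible genes (open) in each replicate of *pab2 pab8* (left, red) and WT (right, blue). Members lie between 1.37 and 1.58 in the mutant and between 1.53 and 1.80 in WT, and the open symbol of mutant replicate 2 is raised to 0.39.

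Most members kept a high rank in the mutant. Of the 200, 150 were also among the 200 most loaded eligible genes of *pab2 pab8*, 184 were among the first 400 and 197 among the first 800. Mean TL in *pab2 pab8* correlated with that in WT at r = 0.79 across the 200 members and at r = 0.94 across the 4093 eligible genes, given as a description because the points come from the same 16 arrays and the members cover a narrow range. Members were lower in the mutant more often than higher, 153 against 47, with a median difference of -0.18, while the median of the other eligible genes was 0.02. Since WT values chose the members, a set was also chosen the opposite way. The 200 eligible genes with the highest TL in *pab2 pab8* had a median of 1.51 there and of 1.59 in WT, with a median difference of -0.02 and 105 genes lower in the mutant. The difference also varied between replicate pairs, since 170, 100, 107 and 149 members were lower in the mutant in pairs 1 to 4.

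**Figure D4:**
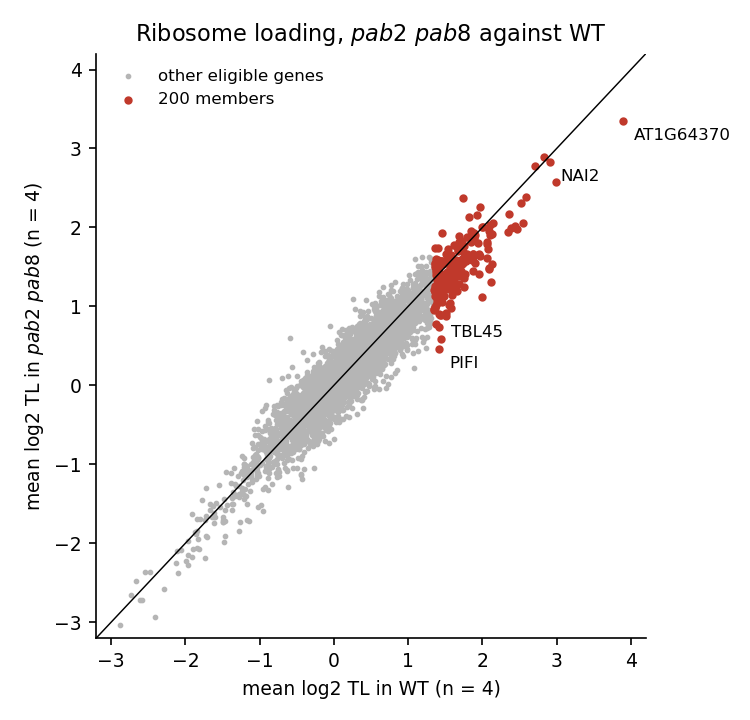
Mean log2 TL in *pab2 pab8* (vertical axis) against mean log2 TL in WT (horizontal axis, n = 4 each) for 200 members (red) and the other eligible genes (grey), with the line of equal values. *AT1G64370* and *NAI2* lie at the upper end, and *PIFI* and *TBL45* lie furthest below the line at the lower end of the members.

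In the limma comparison of TL between genotypes, which shares its WT arrays with the choice, 1 member was called lower and 0 higher, where 0.0044% of all probe sets were called lower and 0.0264% higher. At an unadjusted p under 0.05 the same fit held 27 members lower and 2 higher, beside 4.59% of eligible genes lower and 3.40% higher, and nothing is read from these counts because high WT values chose the members. The member called was *PIFI*, a gene for a chloroplast protein connected with electron flow after illumination. Its NP signal was 10.63, 10.75, 10.69 and 10.44 in *pab2 pab8*, against 9.81, 9.81, 9.74 and 10.12 in WT, whereas its PL signal was 11.00, 11.10, 11.29 and 10.95 in *pab2 pab8*, against 11.16, 11.32, 11.18 and 11.47 in WT. The NP values of the mutant were all above those of WT, and the PL values overlapped. *PIFI* also had the lowest TL of any member in *pab2 pab8*, at rank 1461 of the eligible genes. The call was lost with the replicate number as a block and without each of the 4 replicates, with 0 members lower in each of these fits.

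The next lowest in the mutant was *TBL45*, of a family whose members acetylate cell wall polysaccharides. TL was 1.05, 0.19, 0.25 and 0.84 in *pab2 pab8* and 1.99, 1.03, 0.97 and 1.75 in WT, so in both genotypes replicates 1 and 4 were higher than replicates 2 and 3. The mutant mean of 0.58 ± 0.43 (SD, n = 4) was still called above 0 (limma, FDR = 0.0116), but not without replicate 1 or replicate 4. *AT1G56220* averaged 0.74 in *pab2 pab8* and 1.41 in WT, and *AT4G26130* averaged 0.78 in *pab2 pab8* and 1.37 in WT. *PHOS34*, a gene for a phosphoprotein of the universal stress protein type, had 0.88 ± 0.24 in *pab2 pab8* and 1.51 ± 0.43 in WT (SD, n = 4 each). In 10 members, *PIFI* and *AT1G56220* included, the mutant and WT ranges did not overlap and the mutant was lower, while 0 members had the opposite arrangement. The shares of eligible genes were 3.42% with the mutant lower and 1.73% with the mutant higher, and here too the choice on WT values favours a lower mutant.

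Most members carry only a locus code in the gene tables used here, and 48 have a symbol. The functional lists, which match genes by symbol and can include unrelated genes of similar name, reached 14 members in total. The list for chlorophyll, carotenoid and isoprenoid synthesis held 3 members of 10 eligible genes, 30.0% beside 4.89% of all eligible genes. The median TL of those 10 was 1.09 in *pab2 pab8* and 1.26 in WT, beside 0.23 in *pab2 pab8* and 0.22 in WT over all eligible genes. These medians include the 3 members, which were chosen for high WT TL. Members also carry symbols more often, so no excess is read from these values. One of the 10, *PSY1R*, encodes a peptide receptor and matched by name only. Along the pathway that leads to chlorophyll, *GSA1*, which makes 5-aminolevulinate, had TL values of 1.91, 1.65, 1.31 and 1.56 in *pab2 pab8*, against 2.75, 1.67, 1.80 and 2.01 in WT. *HEMB1*, for the enzyme of the following step, had 1.41, 2.37, 1.67 and 1.45 in *pab2 pab8* and 1.84, 1.66, 1.70 and 1.64 in WT. *CHLI2*, for a subunit of magnesium chelatase, had 1.52, 1.70, 1.52 and 1.56 in *pab2 pab8* and 2.08, 1.25, 1.25 and 1.58 in WT. For all 3 the ranges of both genotypes overlapped.

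Other genes of the same pathway fell short of the limit. *HEME2* and *HEME1*, both for uroporphyrinogen decarboxylase, averaged 1.14 and 0.43 in *pab2 pab8* and 1.31 and 0.62 in WT. *PORB*, for a protochlorophyllide oxidoreductase, averaged 1.05 in *pab2 pab8* and 1.21 in WT. *CHLM*, for magnesium protoporphyrin methyltransferase, was on the other side with -0.52 in *pab2 pab8* and -0.16 in WT. Of the 10 genes matched by the list as a whole, 8 were higher and 1 was lower in PL of the mutant by limma. Among all eligible mRNAs, 40.3% were called higher and 14.8% lower in PL of the mutant. The 8 include *GSA1*, *HEMB1* and *CHLI2*, which were chosen for high WT TL, and *PSY1R*, which matched by name only. These counts therefore do not show an excess for the pathway. *NOL*, a member for a chlorophyll b reductase that works in chlorophyll breakdown, averaged 1.23 in *pab2 pab8* and 1.40 in WT.

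The list for the cytoskeleton and vesicle traffic held 4 members of 32 eligible genes, 12.5% beside 4.89% of all eligible genes. The list reaches only genes with a matching name, and members carry symbols more often, so no excess is read from these shares. *TUB7*, a beta-tubulin gene, had a TL of 1.90, 2.06, 1.85 and 1.72 in *pab2 pab8* and of 1.99, 1.68, 1.69 and 1.82 in WT. *TUB1* had 0.97, 1.64, 1.89 and 1.82 in *pab2 pab8*, against 0.93, 1.86, 1.35 and 1.58 in WT, so replicate 1 was lowest in both. The beta-tubulin genes outside the 200 averaged 1.23 (*TUB9*), 1.24 (*TUB6*) and 0.80 (*TUB5*) in *pab2 pab8*, and 1.11 (*TUB9*), 0.92 (*TUB6*) and 0.78 (*TUB5*) in WT.

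The ESCRT-III complex shapes the vesicles inside multivesicular endosomes, and 2 of its genes were members. *VPS2.1* had a TL of 1.43, 1.87, 1.57 and 0.78 in *pab2 pab8* and of 1.87, 1.33, 1.78 and 1.80 in WT. *VPS46.2* averaged 1.09 ± 0.25 in *pab2 pab8* and 1.39 ± 0.33 in WT (SD, n = 4 each). The ESCRT-III genes *SNF7.2* and *SNF7.1* were eligible but not members. They averaged 0.84 and 0.07 in *pab2 pab8* and 0.95 and 0.39 in WT, and *SNF7.1* was not called in PL of the mutant (limma, FDR = 0.700). In the list as a whole, 18 of 32 genes were higher and 2 lower in PL of the mutant, beside 40.3% and 14.8% of all eligible genes. No excess is read from these counts, which include the members.

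The list for proteolysis held 2 members of 47, a share of 4.26% beside 4.89% of all eligible genes, with the same limit. *CLPP4*, for a subunit of the chloroplast Clp protease, averaged 1.82 ± 0.13 in *pab2 pab8* and 1.85 ± 0.12 in WT. *APA1*, for an aspartic protease of the vacuole, averaged 1.44 ± 0.13 in *pab2 pab8* and 1.62 ± 0.04 in WT (SD, n = 4 each). Outside that list, *GAMMA-VPE*, which encodes a vacuolar processing enzyme, averaged 1.80 ± 0.20 in *pab2 pab8* and 1.94 ± 0.07 in WT. The photosynthetic light reactions contributed 1 of 10 genes, *PSBY* of photosystem II, with 1.13 ± 0.19 in *pab2 pab8* and 1.36 ± 0.22 in WT. The lists for proton pumps (1 of 5, the vacuolar ATPase subunit gene *AT3G58730* or *VHA-D*), the cell wall (1 of 36, the glucosyltransferase gene *GT72B1*), receptor kinases (1 of 2, *FER*) and transcription factors (1 of 17, *BZIP61*) also held 1 each. The lists for the Calvin cycle, chaperones, translation factors, transporters, glycolysis, lipid synthesis and RNA-binding proteins held 0 members, of 3 to 11 eligible genes each. The list for amino acid metabolism matched 0 eligible genes. Since 186 members matched no list, a 0 does not show that a class is absent from the members.

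The members described next belong to no list with several members and are given singly, chosen after their values were seen. *TRXF2*, for a thioredoxin of the chloroplast, had a TL of 1.64, 1.69, 1.53 and 1.36 in *pab2 pab8* and of 1.89, 1.98, 1.95 and 1.79 in WT. Every mutant value was below every WT value, and the mean was 1.55 in the mutant. *GRXC2*, for a glutaredoxin, had 1.81, 2.09, 1.97 and 1.96 in *pab2 pab8* and 1.73, 1.70, 1.93 and 2.02 in WT, and these ranges overlapped. *ISU1*, for a scaffold of iron-sulfur cluster assembly in mitochondria, averaged 1.90 in *pab2 pab8* and 1.89 in WT, and *PRXIIF*, for a mitochondrial peroxiredoxin, averaged 1.47 in *pab2 pab8* and 1.60 in WT. The glutathione transferase genes *GSTU20* and *GSTU16* averaged 1.57 and 1.55 in *pab2 pab8*, against 1.78 and 1.42 in WT. *SIR*, for sulfite reductase, averaged 1.28 in *pab2 pab8* and 1.43 in WT.

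*COR15B*, for a cold-regulated protein of the chloroplast, had a TL of 1.55, 2.00, 1.70 and 1.62 in *pab2 pab8* and of 2.47, 1.85, 1.99 and 1.97 in WT. *COR47*, for a dehydrin, had 1.58, 2.37, 2.24 and 1.81 in *pab2 pab8* and 2.23, 1.82, 1.98 and 1.96 in WT. *TIL*, for a temperature-induced lipocalin, had 1.37, 1.28, 1.17 and 1.59 in *pab2 pab8*, against 1.70, 1.67, 1.84 and 1.81 in WT. Of these 3 only *TIL* had ranges that did not overlap. *AT2G44060*, also called *LEA26*, averaged 1.40 ± 0.05 in *pab2 pab8* and 1.41 ± 0.27 in WT (SD, n = 4 each).

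*FER*, the receptor kinase FERONIA, had a TL of 1.09, 2.00, 1.71 and 1.92 in *pab2 pab8* and of 2.12, 1.63, 1.51 and 1.74 in WT. The ranges overlapped, and mutant replicate 1 was the lowest value of all. *Y14*, for a core protein of the exon junction complex, averaged 1.70 in *pab2 pab8* and 1.67 in WT, and *ATU2AF35A*, for a splicing factor subunit, averaged 0.98 in *pab2 pab8* and 1.36 in WT. Neither symbol matched the list for RNA-binding proteins. *BZIP61*, a transcription factor gene, averaged 1.06 ± 0.49 in *pab2 pab8* and 1.41 ± 0.40 in WT (SD, n = 4 each). *TAAC*, for an ATP/ADP carrier of the thylakoid, averaged 0.90 in *pab2 pab8* and 1.41 in WT, with no overlap between the ranges. *AT5G02740*, which the study annotates as a ribosomal protein S24e family gene but does not hold in its list of ribosomal proteins, remained a member with 1.27 in *pab2 pab8* and 1.52 in WT.

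The members' replicates varied about as much as those of other genes. The SD of TL over replicates had a median of 0.29 in *pab2 pab8* and 0.23 in WT for the members, and of 0.27 in *pab2 pab8* and 0.21 in WT for the other eligible genes. The most variable member in WT was *AT2G33850*, with 2.60, 1.92, 0.76 and 3.08, while its *pab2 pab8* values were 1.72, 1.35, 1.07 and 1.78. WT replicate 3 was far below the others, and the mutant values spread less. *AT5G20080* and *BGLU44*, a beta-glucosidase gene, followed with SDs of 0.67 and 0.65 in WT, against 0.11 and 0.10 in *pab2 pab8*. The steadiest in WT were *APA1*, *AT2G36410* and *AT5G45350*, with SDs of 0.04, 0.05 and 0.05.

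Each WT replicate was also read on members chosen without it. When the 200 highest genes were taken from 3 WT replicates, their median in the remaining replicate was 1.73, 1.54, 1.51 and 1.56 for replicates 1 to 4, beside medians of 0.28, 0.17, 0.20 and 0.18 over all eligible genes. In each case 200 of 200 had a TL above 0 in the replicate left out, and between 171 and 186 belonged to its highest 10% of eligible genes. For comparison, 44.7% of the other eligible genes had a TL above 0 in all 4 WT replicates. These sets shared between 181 and 186 genes with the members and come from the WT arrays that chose them, so their values are a description.

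The members' probe sets had higher total RNA signals than those of the other eligible genes, which is a description of signals, since probe sets differ in how strongly they bind. Their median total RNA signal was 8.94 in *pab2 pab8* and 9.01 in WT, against 8.09 in *pab2 pab8* and 8.12 in WT for the other eligible genes. In the mutant, whose arrays the choice did not use, the median member stood at percentile 75.2 of eligible genes in total RNA, 78.2 in PL and 41.9 in NP. Across eligible genes TL and total RNA signal of the mutant were only loosely related (r = 0.17 over 4093 genes, on arrays scaled separately). In NP of WT, 31 members or 15.5% were below the array medians, against 9.97% of the other eligible genes. The choice on WT values favours a low NP signal in WT. On the NP arrays of *pab2 pab8*, which the choice did not use, 22 members were below the array medians. A signal near background in NP limits how large a TL can be measured.

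Total RNA was called different between genotypes in 23 members. In *pab2 pab8*, 18 members were lower and 5 higher than in WT at an FDR below 0.05 by limma (3 against 3), beside 2.98% of eligible genes lower and 1.98% higher, and 1.45% and 2.44% of all probe sets. These 18 are 9.0% of the members and the 5 are 2.5%. The limit of 7 was set on WT total RNA, so a gene just above it in WT could become a member only where WT was high, which favours lower calls. 7 members had a mutant mean below 7, and 2 of these, *AT2G43620* and *TUB1*, were among the 18. With the limit set on *pab2 pab8* total RNA instead, the 200 highest genes held 16 lower and 7 higher, beside 2.41% and 3.30% of the genes then eligible, and with the limit on the mean of both genotypes they held 17 lower and 6 higher, beside 2.69% and 2.45%. With at least 2-fold as a further criterion, 3 were lower (*AT2G43620* included) and 0 higher, where 0.101% and 0.435% of all probe sets were called. The median change was -0.09 over the members and -0.05 over the other eligible genes. In such bulk samples, fewer cells of one type and less RNA per cell cannot be told apart. The seed markers moved with genotype on the same arrays, as given above, and their part in the members' changes was not tested.

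Fewer members were called when any replicate was left out, which also leaves fewer samples for the test. Without replicates 1, 2 and 3 in turn, 3, 4 and 7 members were lower and 1, 1 and 4 higher, and each of these was among those called with all samples. *AT4G22490* and *AT5G01870* were lower and *AT1G06000* was higher in all 3 of these fits.

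Both of these lower genes belong to families of small secreted proteins that the study annotates as lipid transfer or protease inhibitor type. *AT4G22490* had log2 total RNA signals of 8.88, 9.0 and 9.08 in *pab2 pab8*, against 10.14, 10.09 and 10.45 in WT. The groups were separated by more than 1, and the change was -1.24 (standard error 0.11, limma FDR = 0.00116) or 2.37-fold. Its TL in the mutant was 2.26 ± 0.16, above the 1.97 ± 0.36 of WT (SD, n = 4 each). *AT5G01870* had 7.73, 7.95 and 7.62 in *pab2 pab8* and 8.97, 8.98 and 9.15 in WT, a change of -1.27 (limma FDR = 0.00100). *AT2G43620*, annotated as a chitinase family gene, had 5.79, 5.57 and 6.16 in *pab2 pab8* and 6.86, 7.31 and 7.18 in WT. It passed the limit of 7 through WT alone, so its difference of -1.27 is a description.

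*TUB1* had total RNA signals of 6.92, 6.90 and 6.29 in *pab2 pab8*, against 7.59, 8.00 and 7.42 in WT. It too passed the limit through WT alone, and its difference of -0.97 is a description. *AT3G05730* had 9.99, 10.51 and 9.97 in *pab2 pab8* and 11.57, 10.97 and 10.75 in WT, a change of -0.94 (limma FDR = 0.0476). *AT3G05730* was not called without any 1 of the replicates or with quantile normalization. The other 13 lower members changed by -0.91 or less in size, among them *FDH* for formate dehydrogenase with -0.74, *BGLU44* with -0.43 and *PDF1B*, which encodes a peptide deformylase of chloroplasts, with -0.41. With the replicate number as a block, *BGLU44* and *PDF1B* were no longer called (limma FDR = 0.0583 and 0.0655).

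Among the 5 higher members, *NAI2* had total RNA signals of 8.64, 8.65 and 8.50 in *pab2 pab8*, against 7.80, 7.28 and 7.85 in WT. The change was 0.96 (standard error 0.15, limma FDR = 0.0115) or 1.94-fold, and it was not called without replicate 1 or 2. *PYK10*, in contrast, had 12.21, 12.13 and 12.15 in *pab2 pab8* and 12.22, 12.34 and 12.11 in WT, with overlapping groups (limma FDR = 0.761). *AT1G06000* had 8.51, 8.55 and 8.46 in *pab2 pab8* and 7.64, 7.58 and 7.66 in WT, a change of 0.88 (limma FDR = 0.00117) with groups far apart relative to their spread.

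*AT2G41090*, *AT3G52920* and *AT5G35680* were higher by 0.80, 0.75 and 0.61 (limma FDR = 0.0390, 0.00887 and 0.0451). None of these 3 was called without replicate 1 or without replicate 2, nor *AT5G35680* without replicate 3 or with the replicate block (limma FDR = 0.0723). *AT3G52920* paired the higher total RNA with a lower mean TL, 1.30 ± 0.46 in *pab2 pab8* against 2.11 ± 0.48 in WT (SD, n = 4 each), although the ranges of 0.87 to 1.92 and 1.68 to 2.77 overlapped. The mutant TL of the called members ran from 0.98 to 2.26 for the 18 lower and from 1.30 to 2.83 for the 5 higher ones.

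**Figure D5:**
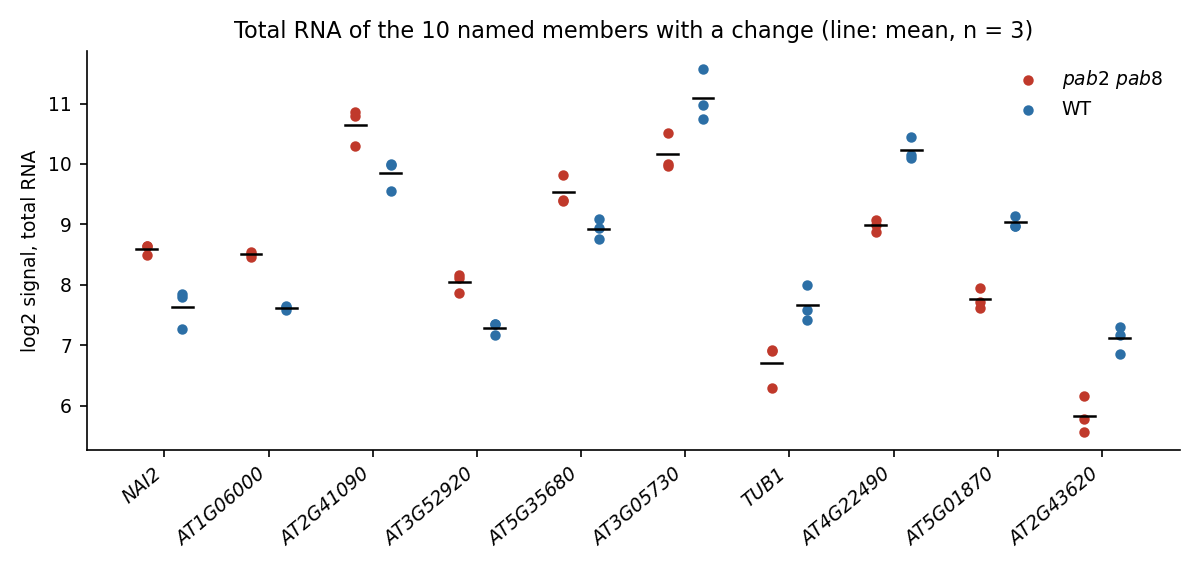
Log2 total RNA signal of the 5 members with the largest changes in each direction, with 1 point per sample in *pab2 pab8* (red, left of each pair) and WT (blue) and a line at the mean (n = 3). From left to right the change runs from 0.96 for *NAI2* to -1.27 for *AT2G43620*, and no pair of groups overlaps. *AT2G43620* and *TUB1* lie below 7 on average in *pab2 pab8* and above 7 in WT.

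The members were spread over all 5 chromosomes, with 62, 35, 29, 32 and 42 of the 1076, 605, 857, 592 and 963 eligible genes on chromosomes 1 to 5. Neighbouring protein-coding genes were both members in 5 cases, of 711 cases in which both neighbours were eligible. These were *AT1G62500* with *AT1G62510*, *AT2G42520* with *COR15B*, *COS1* with *AT2G44060*, *AT3G15680* with *AT3G15690*, and *AT5G55210* with *AT5G55220*. *COS1*, which encodes lumazine synthase of riboflavin synthesis, had a TL of 1.41 ± 0.15 in *pab2 pab8* and 1.52 ± 0.36 in WT (SD, n = 4 each), and its neighbour *AT2G44060* lay at 1.40 in *pab2 pab8* and 1.41 in WT.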

How the data were processed

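Analyses started from the authors' deposited log2 signals of ATH1 arrays, which the submitters' notes and the paper credit to the affy package with RMA normalization. No version of either is stated in the sources used here. The linear models were run in limma 3.58.1 under R 4.3.3 with moderated statistics (eBayes). P-values were adjusted by Benjamini-Hochberg across all 22746 probe sets at an FDR below 0.05. PL was tested against NP over 4 mutant TL values, and genotypes were compared without a replicate term. Tables and plots came from pandas 2.3.3, numpy 2.4.6 and matplotlib 3.10.9 under Python 3.11.15. The number of arrays limits the precision, and p-values weigh a difference against the spread between replicates, moderated across probe sets. For PL against NP the difference is taken from a TL of 0, which means equal normalized signal. The fits were checked on simulated data. Alternatives were other scalings, signal limits, list sizes and name tables, an intensity trend, a replicate block and leaving out single replicates. The limit of 7 on *pab2 pab8* or on both genotypes was added after seeing the data.

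Probe sets were named through the array's annotation table and a RefSeq gene table (TAIR10.1). 13436 had 1 gene, 503 had several, 77 had no record and 8730 were unnamed. 4329 probe sets without a single name reached the signal of 7 in WT total RNA, and 327 of them had a TL as high as the lowest member, so the 200 are the highest of the named genes only. Ribosomal proteins (13) and histones (5) at or above that TL were left out. No sequences are shown, because none were at hand, and no coordinates, since the build of the array is not stated. The authors' deposited table of translation states was not used.

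The members, gene lists and comparisons were chosen with earlier results of these data known. Genes named are those at ranks 1 to 12, the 5 on each side of the limit, the first 3 of each list with at least 3 members, the 5 lowest in mutant TL, the 5 largest total RNA changes per direction and the 3 most and least variable in WT. Other members were chosen for description after their values were seen, mostly because the tables annotate them. According to the labels both genotypes grew side by side and replicates at different times. Samples of both genotypes with the same number were therefore taken as pairs in the counts by replicate pair and in the replicate block. The main genotype fits did not use these pairs, and the labels do not say that a number marks a growth time. As a check, same-numbered samples were compared in their deviation from the group mean across genes, which gave low r of 0.0660, 0.0931, 0.0525 and 0.135 for TL, and of -0.164, -0.0572 and 0.211 for total RNA.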

Additional observations from a re-analysis of the deposited data

Results flagged for a closer look

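Of the named genes, 46 were examined for a replicate that stands apart, in 92 groups of 4 TL values, and 2 such replicates were found, where chance gives about 1 in 20 groups. *AT5G10960*, the member next to last, had a WT TL of 1.90 in replicate 1, against 1.13, 1.17 and 1.21 in the others. *AT1G18070*, just below the limit, had a *pab2 pab8* TL of 0.56 in replicate 1, against 1.64, 1.77 and 1.80 in the others. *PIFI* differed between genotypes in the limma fit, with a TL difference (*pab2 pab8* minus WT) of -0.95 (FDR = 0.0418), in a contrast whose WT arrays also chose the members.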

How the results depend on the processing

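The share of members called higher in PL of *pab2 pab8* was 98.0% to 100% under all alternatives, including the highest 100 and 300 genes and a limit of 6 or 8 in WT total RNA, and was 98.0% with no replicate block. The median mutant TL of the members stayed between 1.39 and 1.51. Of the 200 members, 150 to 200 were kept under other scalings, limits and name tables, without single replicates and when ranked on *pab2 pab8*, and 100 when only the highest 100 were taken. In total RNA, 29 members were lower when only probe sets with a WT signal of 7 or more were fitted (fewer tests), 3 were lower and 0 higher with 2-fold added, and 3 to 7 were lower and 1 to 4 higher without single replicates. With the replicate block, 14 were lower, all among the 18, and 5 higher, 4 of them among the 5, in total RNA, and the single TL call was lost (0), as it was with an intensity trend (0) and without each replicate (0 to 0). The cause was not tested. Mutant TL was no longer called for *PIFI* without replicate 3 or 4 and for *TBL45* without replicate 1 or 4. Signal close to background limits TL of members dim in NP.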
